A study of Forsythia viridissima with 2 samples.

Results

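A set of 123 abundant contigs was at least 10-fold higher in the leaf library than in the flower library of Forsythia viridissima. Contigs are transcripts assembled from reads without a genome. The members were chosen by their measured values, from 88491 contigs in all. Each had a leaf count of at least 1000, and a leaf CPM (count scaled to the library total) at least 10 times its flower CPM. Because the rule used both libraries, the members' counts, levels and folds are given as a description with no test.

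The leaf group was 1 RNA-seq library and the flower group 1 RNA-seq library, both from plants 2 years old grown outdoors with no treatment. The labels name no genotype, strain or number of plants, and do not say whether leaf and flower came from one plant. Poly(A) RNA was taken from leaf and from flower tissue, so fewer cells of a type and less RNA per cell cannot be told apart. Library totals were 8942023 counts in leaf and 8279227 counts in flower, and 3 counts, the limit that a count of 0 allows, equal 0.335 CPM in leaf and 0.362 CPM in flower. With 1 library per tissue there was no replicate check, so the intervals below, exact or Wilson at 95%, cover counting error only. Reads lacked molecular identifiers and cannot be taken as separate molecules, so even the counting error may be larger than shown.

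Leaves are the main photosynthetic organs of a shrub, while flowers hold petals, stamens and carpels along with green sepals. Forsythia is used in herbal medicine and is known for lignans and phenylethanoid glycosides, compounds of secondary metabolism, which was the study's subject. The contigs carried no gene names, so none of the 123 is tied to any of these functions here, and the tissue labels were not checked against marker genes. Contigs are identified below by their length, with IDs for the pair at the highest leaf level.

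The 123 contigs were 8.95% of the 1374 contigs with at least 1000 leaf counts. By the fold alone, a 10-fold or larger excess in leaf was found for 3.73% of the 36828 contigs that reached 20 counts in either library. The members held 419857 counts in leaf and 17674 counts in flower. These were 4.70% (Wilson interval 4.68 to 4.71%) of the leaf library and 0.213% (0.210 to 0.217%) of the flower library. The summed CPM of the members was 21.99-fold higher in leaf (21.7 to 22.3). By TPM, which divides by effective contig length and is scaled to one sum per library, they held 5.13% of the leaf total and 0.275% of the flower total.

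**Figure D1:**
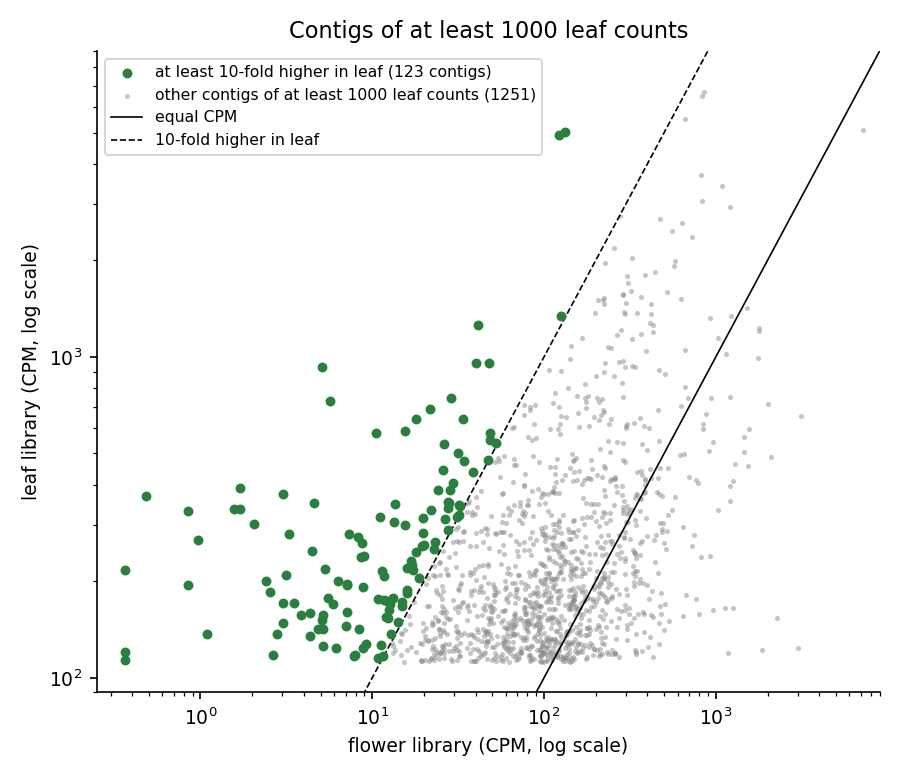
Leaf CPM (vertical) against flower CPM (horizontal), both on log scales, for the 1374 contigs of at least 1000 leaf counts. The 123 green points lie on or left of the dashed 10-fold line, and the 1251 grey points lie right of it, on both sides of the solid line of equal CPM.

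Leaf levels of the members spanned a wide range. Leaf counts ran from 1018 to 44773 with a median of 2144. Per length, leaf TPM ran from 35.2 to 3986 with a median of 241, and flower TPM ran from 0.21 to 308 with a median of 10.04. The 10 contigs at 1000 leaf TPM or more held 40.0% of the members' leaf TPM, and 44 contigs between 300 and 1000 leaf TPM held a further 40.8%. Another 50 contigs lay between 100 and 300 leaf TPM, and 19 lay under 100 leaf TPM. Counted from the highest down, 17 members held 50% of the members' leaf TPM. By group of leaf level, the median leaf-to-flower ratios were 20.1 under 100 leaf TPM, 26.2 from 100 to 300, 18.0 from 300 to 1000, and 24.0 at 1000 or more.

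The highest member per length was TR4035|c0_g1_i1, a contig of 282 bases. It had 3986 TPM in leaf and 308 TPM in flower, from 4230 leaf counts and 283 flower counts. Its CPM was 13.8-fold higher in leaf (12.3 to 15.7). It ranked 4 among all contigs by leaf TPM and 242 by flower TPM, while by counts it ranked 183 in leaf and 6307 in flower. Next came TR12927|c0_g1_i1, of 333 bases, with 2948 TPM in leaf and 198 TPM in flower. Its counts were 4488 in leaf and 263 in flower, a CPM 15.8-fold higher in leaf (13.9 to 18.0). Both contigs were short, and their TPM rests on effective lengths of 115 and 165 bases in leaf and 112 and 162 bases in flower.

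By counts, the leading members were a pair of long contigs from one read cluster, taken here as the contigs whose IDs share the same TR number. The contig of 2056 bases had 44773 leaf counts and 1096 flower counts. The contig of 2040 bases had 44118 leaf counts and 1011 flower counts. The pair had nearly equal levels in each library, at 2576 and 2560 TPM in leaf and 70.8 and 65.9 TPM in flower. Their leaf-to-flower CPM ratios were 37.8 (35.6 to 40.2) and 40.4 (38.0 to 43.0), and their counting intervals overlapped. They stood under different assembly genes of the cluster, and whether they share sequence or reads was not tested. Together they held 21.2% of the members' leaf counts, and without them the other members held 3.70% (3.69 to 3.71%) of the leaf library. The only further contig of that cluster, of 226 bases, had 248 leaf counts and 32 flower counts, a CPM 7.18-fold higher in leaf (4.95 to 10.7).

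The other 6 contigs complete the 10 highest by leaf TPM. A contig of 393 bases had 1660 TPM in leaf and 110 TPM in flower. A contig of 746 bases had 1565 TPM in leaf and 8.90 TPM in flower. Contigs of 842 and 661 bases had 1376 and 1354 TPM in leaf, against 60.5 and 44.5 TPM in flower. Among the 10, the flower level of the 746-base contig was the lowest and its fold the largest, at 183.7 (135.7 to 255.0). A contig of 258 bases had 1323 TPM in leaf and 58.7 TPM in flower, from 1124 leaf counts and 43 flower counts. A contig of 1284 bases had 1165 TPM in leaf and 114 TPM in flower. That last contig had the smallest fold of the 10, at 10.6, and its interval of 9.95 to 11.3 reached below the 10-fold limit.

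**Figure D2:**
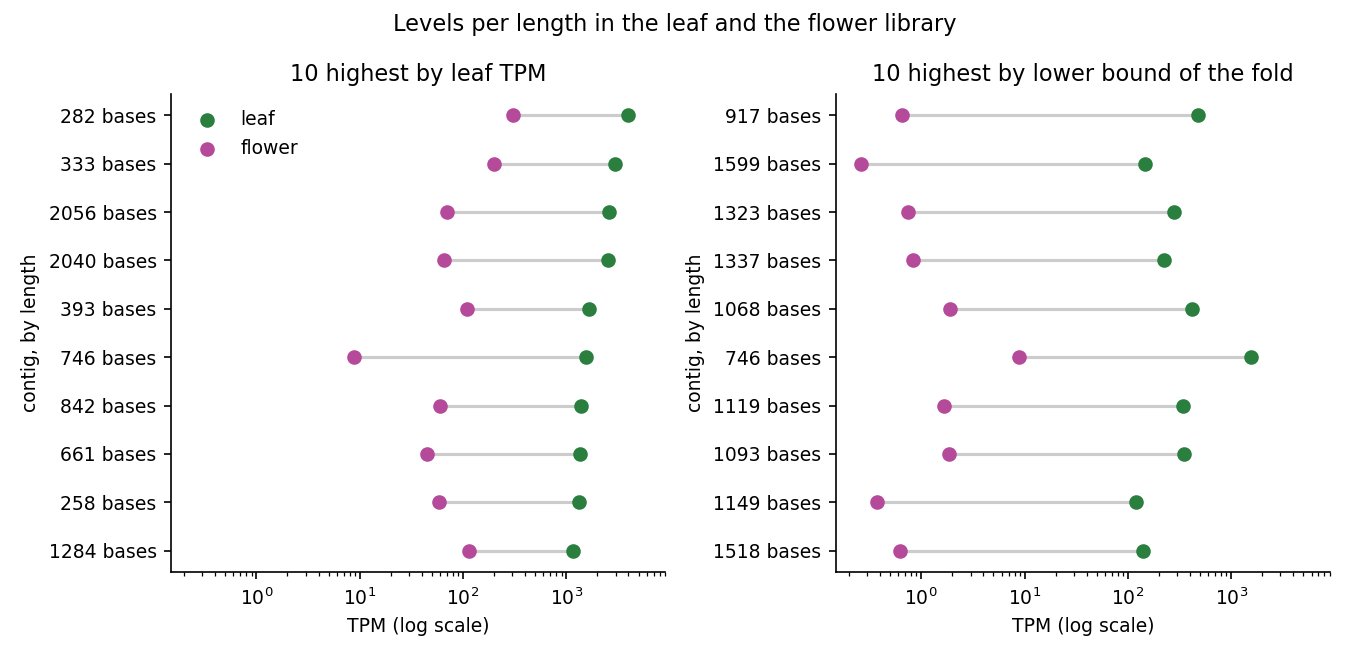
TPM on a log scale in the leaf library (green) and the flower library (purple) for the 10 members with the highest leaf TPM (left) and the 10 with the highest lower bound of the leaf-to-flower ratio (right), each labelled by contig length. The contigs at left had 1165 to 3986 TPM in leaf and 8.90 to 308 TPM in flower; those at right had 119 to 1565 TPM in leaf and 0.26 to 8.90 TPM in flower.

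Folds of the members were skewed toward the limit. Between 10-fold and 20-fold lay 61 members, between 20-fold and 50-fold 39, between 50-fold and 100-fold 8, and at 100-fold or more 15. The median ratio was 20.1, with quartiles at 13.1 and 38.0. Leaf counts did not follow this order, with medians of 2246, 1756, 2044 and 2950 in the 4 groups from low to high fold. Flower counts had medians of 155, 59, 26.5 and 9. Over the 123 members, Spearman's rho between leaf count and log2 fold was 0.02, and between leaf TPM and log2 fold it was -0.04. These are correlations across contigs of the same libraries, with leaf values in both quantities. The rule cut the set off by leaf count and by fold, and no p-value is attached.

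No member was missing from the flower library. The lowest flower count was 3, also the lowest among all 1374 contigs of at least 1000 leaf counts. Flower counts were under 20 for 12 members, at least 20 but under 100 for 52, at least 100 but under 1000 for 56, and 1000 or more for 3. None of the members was among the 1000 highest contigs of the flower library by counts, while 104 were among the 1000 highest of the leaf library. By TPM, 84 were among the 1000 highest in leaf and 2 among the 1000 highest in flower. The rule in part fixes these numbers, so they are a description. The 1000 highest by leaf counts all lie among the 1374 contigs from which the members were taken, and the fold limit holds the members' flower counts down.

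The widest gaps were found in contigs with few flower reads, the flower count being the divisor of the ratio. The contig of 917 bases had 3298 leaf counts and 4 flower counts, where 4 counts have a 95% Poisson interval of 1.09 to 10.2. Its ratio was 763 (298 to 2803), and its levels were 478 TPM in leaf and 0.65 TPM in flower. The contig of 1599 bases had 1942 leaf counts and 3 flower counts, a ratio of 599 (205 to 2909). Both intervals were wide, and they overlapped. The contig of 1323 bases had 2950 leaf counts and 7 flower counts, a ratio of 390 (189 to 971). The contig of 1337 bases had 2407 leaf counts and 8 flower counts, a ratio of 279 (141 to 646). The contig of 1068 bases had 3496 leaf counts and 14 flower counts, a ratio of 231 (138 to 423). Of the 10 members with the highest lower bound, the 746-base contig had the most counts in both libraries, 8331 in leaf and 42 in flower. The 4 others of the 10 were 1093 to 1518 bases long, with ratios between 199 and 333.

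The rule's limits lay in the middle of a continuous range. The members just inside the fold limit had ratios of 10.04, 10.10 and 10.10, and the contigs just outside had 9.98, 9.90 and 9.89. Just inside the count limit were members with 1018, 1030 and 1045 leaf counts, and just outside were contigs with 994, 988 and 988 leaf counts. The one with 994 leaf counts had 4 in flower, a ratio of 230 (89.6 to 846). For 103 of the 123 members the whole counting interval of the ratio lay at or above 10, and for 20 it reached below. Conversely, 31 of the 1251 other contigs of at least 1000 leaf counts had intervals that reached 10 or more.

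Most of the highest contigs of the leaf library were not members. Of the 20 highest by leaf TPM, 4 were members, 7 were between 5-fold and 10-fold higher in leaf, 8 between 2-fold and 5-fold, and 1 was lower in leaf. The 2 highest, of 753 and 793 bases, had 11147 and 10072 TPM in leaf, against 1473 and 1340 TPM in flower. Their CPM ratios were 7.90 (7.71 to 8.10) and 7.84 (7.65 to 8.04), under the limit. Among all 1251 other contigs of at least 1000 leaf counts, 197 were between 5-fold and 10-fold higher in leaf. Those 197 held 9.61% of the leaf library, more than the 4.70% held by the members.

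The share of contigs past 10-fold differed along the range of leaf counts. In bands that start at 20, 100 and 300 leaf counts it was 3.80%, 4.34% and 4.86%. In bands that start at 1000 and 3000 leaf counts it was 8.08% and 13.0%, and at 10000 or more it was 7.02%, where 4 of 57 contigs passed. Applied the other way round, to flower counts, the rule gave 237 contigs, 18.4% of the 1286 contigs with at least 1000 flower counts. In the same bands of flower count the shares were 6.41%, 6.51%, 8.24%, 14.3%, 33.3% and 44.4%, the last from 16 of 36 contigs. The leaf share was the lower of the pair in every band, and the gap was widest at 10000 counts or more. In the lowest band the shares are held down by setting a count of 0 in the other tissue to 3. A contig with 30 leaf counts and 0 flower counts had a ratio of 9.26, while one with 24 and 1 had 22.2. The shares of all contigs at 20 counts or more carry the same limit, and its size was not tested. Contigs in a band are from a single library and no test was made.

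**Figure D3:**
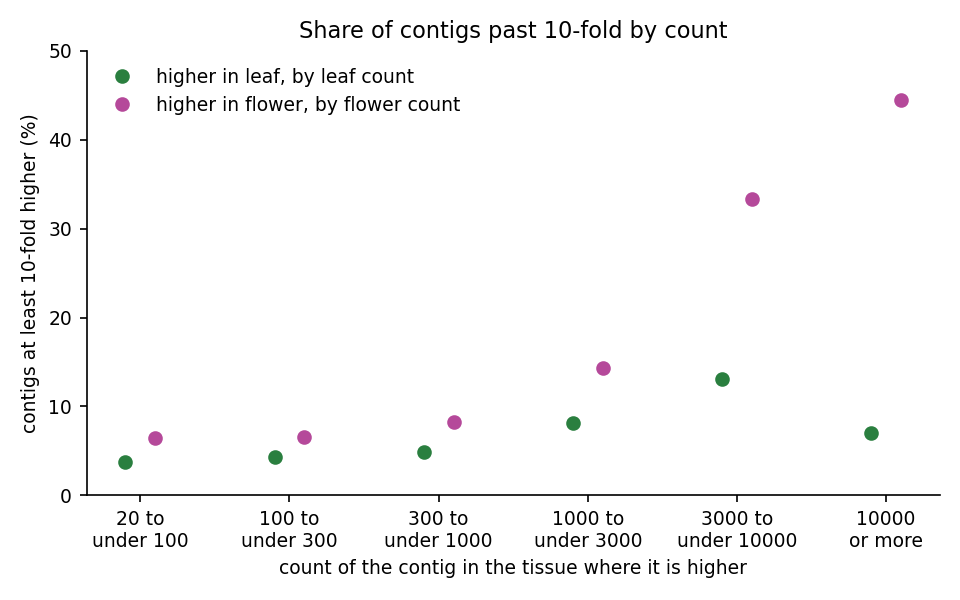
Percent of contigs at least 10-fold higher in leaf by their leaf count (green) and at least 10-fold higher in flower by their flower count (purple), in 6 bands of count. The leaf shares lie between 3.80% and 13.0% and the flower shares between 6.41% and 44.4%.

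The leaf set also reached less extreme folds than its flower counterpart. At 100-fold or more were 15 of the 123 members (12.2%) and 86 of the 237 contigs higher in flower (36.3%). Under 20 counts in the other tissue were 12 members (9.76%) and 75 of the flower contigs (31.6%). None of the members was at 0 in flower, while 6 of the flower contigs were at 0 in leaf. The median fold was 20.1 toward leaf for the members and 55.9 toward flower for the counterpart. The share of its own library was 4.70% for the members and 10.6% for the counterpart.

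Contig length was not used in the rule. The members had a median length of 1347 bases, with quartiles at 918 and 1789 and a range of 258 to 4866. The other 1251 contigs of at least 1000 leaf counts had a median of 1705 bases. The 365 of those within 1.5-fold between the tissues had a median of 2005 bases, and the 237 contigs higher in flower had a median of 1630. Under 1000 bases were 37 members, 5 of them under 500 bases. At 2000 bases or more were 18.7% of the members and 31.6% of the contigs higher in flower. The share was 37.0% for the other abundant contigs and 50.7% for the even ones among them. The members also had the shorter median within each of 3 bands of leaf count. From 1000 to under 2000 leaf counts the members' median was 1469 bases, against 1699 for the other contigs. From 2000 to under 5000 leaf counts the medians were 1125 and 1681 bases, and at 5000 or more they were 1479 and 1743 bases. Length was compared with no test, and a contig may be a part of its transcript.

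**Figure D4:**
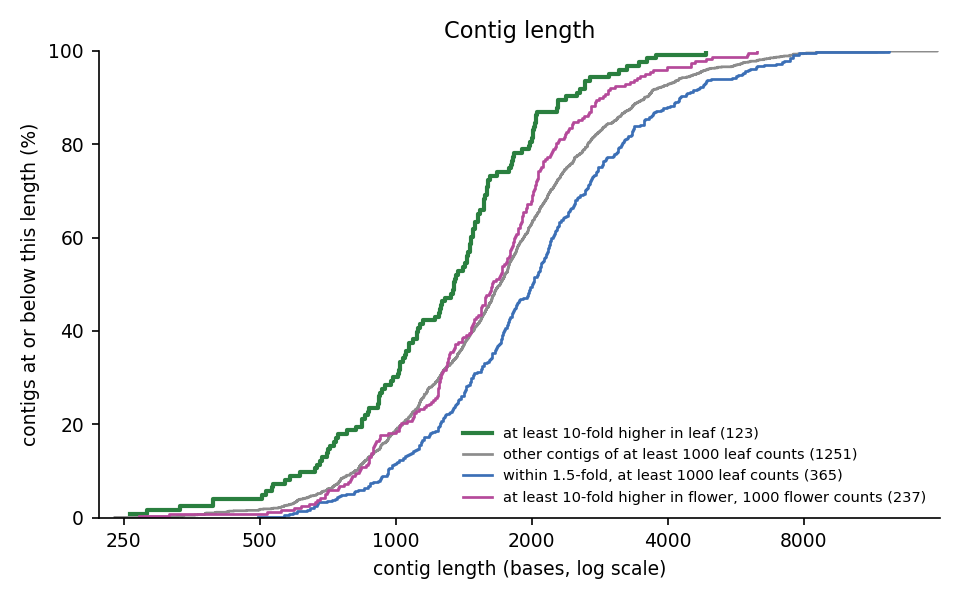
Percent of contigs at or below each length in bases (log scale) for the 123 members (green), the 1251 other contigs of at least 1000 leaf counts (grey), the 365 of those within 1.5-fold (blue) and the 237 contigs at least 10-fold higher in flower (purple). The curve of the members lies to the left of the others over most of its range, with a median of 1347 bases.

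Short members had high levels per length, which the limit of 1000 leaf counts in part fixes. A short contig needs a high TPM to reach that limit. The 5 members under 500 bases held 3.62% of the members' leaf counts and 21.1% of their leaf TPM. Their median leaf count was 3441, against 2329.5, 2144 and 1736 in the groups of longer members. Their median leaf TPM was 1660, against 421 for members of 500 to under 1000 bases, 189 for those of 1000 to under 2000 bases and 80.4 for those of 2000 bases or more. Median ratios of leaf to flower in these length groups were 15.9, 16.0, 22.6 and 27.2. All 15 members past 100-fold were 746 to 1900 bases long. Over the members, Spearman's rho between length and log2 fold was 0.11, a description across 123 contigs. A limit in counts favours long contigs, and 14 contigs of 230 to 544 bases passed 10-fold and reached the members' median leaf TPM with fewer than 1000 leaf counts.

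Ratios by TPM were slightly smaller than ratios by CPM. The members' median ratio was 19.4 by TPM and 20.1 by CPM. The median quotient of the TPM ratio over the CPM ratio was 0.943 for members under 500 bases and 0.962 for those of 2000 bases or more. By TPM, 5 of the 123 members fell under 10-fold.

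The 123 members belonged to 115 assembly genes, which are contigs that share the ID up to the isoform number, and to 113 read clusters. For 98 members the contig was the only one of its assembly gene (79.7%). Among the other contigs of at least 1000 leaf counts this share was 77.1%, and among the contigs higher in flower it was 78.1%. In 8 read clusters there were 2 or more members, and the most was 4, all under one assembly gene. In that gene the contigs of 2013, 2016 and 1999 bases had 2454, 1789 and 2351 counts in leaf, against 68, 52 and 72 in flower. Their ratios were 33.4, 31.9 and 30.2. The fourth contig, of 1984 bases, had 3097 leaf counts and 264 flower counts. Its ratio was 10.9 (9.58 to 12.4), with an interval that did not overlap with those of the others. Such intervals leave out any error in dividing reads that the 4 contigs may share.

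Other contigs of the members' assembly genes were all on the leaf side. There were 15 of them in 12 assembly genes, all at 20 counts or more in either library. A higher CPM in leaf was found for 15 of 15, against 46.2% of all contigs at that minimum. Among contigs of at least 1000 leaf counts that share was 79.5%, and neither share is matched to the leaf counts of the 15. For 13 of the 15 the counting interval lay above 1, and for 2 it held 1. Their median ratio was 9.32, and 5 of the 15 passed 10-fold with fewer than 1000 leaf counts, against 3.73% of all contigs at that minimum. The rule holds the median down, because the 3 with at least 1000 leaf counts would be members past 10-fold. Contigs of one assembly gene can share reads, so the count is not independent of the members' own values.

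In some assembly genes the member and its partner contigs differed. A member of 1576 bases had 2737 leaf counts and 111 flower counts, a ratio of 22.8 (18.9 to 27.9). Its partner contig of 1694 bases had 813 leaf counts and 666 flower counts, a ratio of 1.13 (1.02 to 1.25). A member of 739 bases had 1756 leaf counts and 59 flower counts, a ratio of 27.6 (21.3 to 36.4). Partner contigs of that member, of 1035 and 952 bases, had ratios of 1.10 (0.982 to 1.22) and 1.36 (1.15 to 1.60). The intervals of members and partners in these 2 genes were far apart. They leave out any error in dividing reads that contigs of one assembly gene can share. Members of 2556 and 2623 bases in another gene had ratios of 38.0 and 38.1, and their partner of 2778 bases had 2.96 (2.60 to 3.39). Summed over all contigs of an assembly gene, 110 of the 115 genes met the rule and 5 did not. The lowest sum was that of the gene with the 739-base member, at 2.88-fold higher in leaf (2.67 to 3.11).

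**Figure D5:**
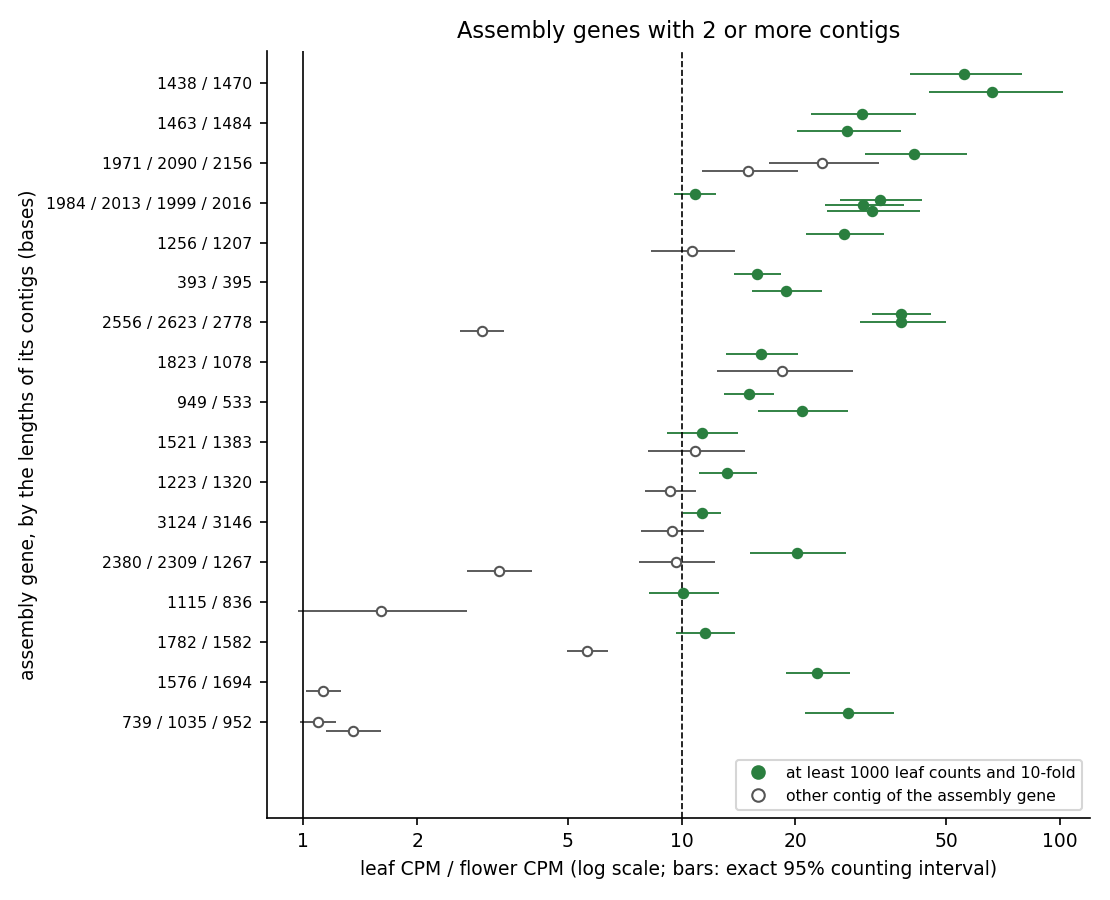
Leaf-to-flower CPM ratio on a log scale for each contig of the 17 assembly genes that hold a member and 2 or more contigs, with exact 95% counting intervals as bars; rows are labelled by the contig lengths in bases. Filled green points are members and open points other contigs of the gene, which lie between 1.10 and 23.5.

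Across a whole read cluster the direction was mixed. In the members' clusters, 79 contigs under other assembly genes reached 20 counts in either library. Of these, 46 had a higher CPM in leaf (58.2%), against 46.2% of all contigs at that minimum. At least 4-fold higher in leaf were 23 (29.1%), against 10.2% of all contigs at that minimum. At least 10-fold higher in leaf were 12 (15.2%), against 3.73% of all. At least 4-fold higher in flower were 12 (15.2%), against 12.0% of all. The 79 lay in 31 clusters, so they are not independent of each other, and no test was made. The shares of all contigs were not matched to the 79 by count. The counting interval lay above 1 for 39, below 1 for 29, and held 1 for 11.

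In 5 clusters, described after their values were seen, a member stood beside a contig at least 10-fold higher in flower. These 5 contigs were 6.33% of the 79, close to the 6.22% of all contigs at 20 counts or more. The largest fold toward flower was in a cluster of 9 contigs. There the member, of 2028 bases, had 11241 leaf counts and 342 flower counts, a ratio of 30.4 (27.3 to 34.0). A contig of 895 bases in the same cluster had 9 leaf counts and 4318 flower counts, 518-fold higher in flower (273 to 1134). In the cluster with the assembly gene of 4 members, a contig of 2086 bases had 18 leaf counts and 769 flower counts, 46.1-fold higher in flower (29.0 to 78.3). The member of 1149 bases had 1079 leaf counts and 3 flower counts, a ratio of 333 (114 to 1617). A contig of 935 bases in its cluster had 12 counts in leaf and 686 in flower, 61.7-fold higher in flower (35.1 to 120.1). In the other 2 of the 5 clusters the excess in flower was 24.1-fold (18.5 to 31.9) and 10.03-fold (4.60 to 25.9). Some of the 5 clusters also held further contigs on the leaf side. The cluster with 4 members held a contig of 257 bases that was 27.8-fold higher in leaf (10.6 to 104). The cluster with the 24.1-fold excess held contigs of 893, 225 and 487 bases at 13.0-fold, 12.8-fold and 37.0-fold higher in leaf. Whether the contigs of a cluster share sequence was not tested.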

How the data were processed

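RNA-seq was made from 1 leaf and 1 flower library of Forsythia viridissima. Per the submitters' processing notes, reads were trimmed with Trimmomatic and transcript abundance was estimated with RSEM. Not given in the sources used here were their versions, the aligner and the assembler. Assembly genes and read clusters were taken from the contig IDs, which have the form that Trinity writes. The deposited expected counts are RSEM estimates per contig, not normalized, and every one was a whole number, with a tolerance of 0. Per the file headers, the deposited TPM and FPKM are divided by effective length, and the FPKM of the deposited table of both tissues equalled that of the library tables for every member to the last deposited digit. The deposited IsoPct, in percent, and lengths complete the files.

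From the counts, CPM was computed by dividing by each library's total. A flower count of 0 was set to 3 in ratios of leaf to flower, and a leaf count of 0 was set to 3 in ratios of flower to leaf. Intervals of ratios are exact conditional (Clopper-Pearson) intervals, shares have Wilson intervals and single counts exact Poisson intervals, all at 95%. Alternatives used edgeR 4.0.16 (TMM) and DESeq2 1.42.0 size factors under R 4.3.3, as scalings without a test, since 1 library per tissue allows none. The rule and intervals were run on simulated counts with set folds and counting error alone. Shared reads, duplicate reads and variation between libraries were not simulated, so that run could not check their effect. Python 3.11.15, numpy 2.4.6, scipy 1.17.1, pandas 2.3.3 and matplotlib 3.10.9 were used. IDs are printed for the 2 members with the highest leaf TPM. Other contigs described are the 10 highest by leaf TPM, the 10 highest by the lower bound of the ratio, those nearest the limits, and those sharing an assembly gene or read cluster with members. The members and lists were chosen with earlier results of these data known. Gene names, contig sequences and a genome were not used here.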

Additional observations from a re-analysis of the deposited data

How the results depend on the processing

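Of 29 alternative values, 9 stayed and 20 moved. A count stayed within 1.5 times, a share or percent within its Wilson interval, and a median ratio or length at equality. The limits for library shares and medians were narrow, so a moved value can be a small shift and the tally does not measure stability. The percent of other contigs of the members' assembly genes on the leaf side used the same 15 contigs at minimums of 1 and 20 counts. At 100 counts it used 14 of those 15, which were all on the leaf side, so it could not change. None reversed a direction, which the rule itself fixes. The 123 members numbered 338 at a minimum of 300 leaf counts, 37 at 3000, 320 at 5-fold and 62 at 20-fold. They numbered 133 with TMM factors, 140 with DESeq2 size factors, which were 1 in both libraries and so left the counts unscaled, and 118 by TPM ratio, and those lists shared 123, 123 and 118 contigs with the members. The lower bound of the interval at 10 or more left 103. A floor of 1 count could change nothing, because no contig of at least 1000 leaf counts was at 0 in flower. A rule of 100 leaf TPM and a 10-fold TPM ratio, chosen after seeing the data, gave 138 contigs, of which 99 were members. The share of the leaf library was 5.13% by TPM, 6.03% at a minimum of 300 leaf counts, 2.96% at 3000, 4.88% at the assembly gene level, where 122 genes passed, and 3.70% without the 2 members of highest leaf count, a setting also chosen after seeing the data. The median ratio was 21.2 with TMM factors, 21.7 with DESeq2 size factors, 19.4 by TPM, 22.9 at a minimum of 300 leaf counts, 19.97 at 3000 and 17.8 at the assembly gene level. The median length was 1444 bases at a minimum of 300 leaf counts, 1284 at 3000, 1398 at 5-fold, 1452 at 20-fold, and 1337 with 1 contig per assembly gene. The numbers at other count minimums and folds follow from those limits, and for the remaining shifts the cause was not tested. Depth limits the ratios of the 12 members with under 20 flower counts. No paired analysis was possible because leaf and flower each gave a single library.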
